A study of Mus musculus with 4 samples.

Results

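Marker genes of the atria and of the cardiac conduction system were described in ventricular RNA of mice on postnatal day 1. The 10 genes were taken from a list by symbol, all 10 were found among the 53465 genes of the files, and all 10 passed the filter on low counts that left 18157 genes for testing. They are the sarcoplasmic reticulum pump regulator Sln, the atrial myosin light chains Myl4 and Myl7, the atrial growth factor Bmp10, the gap junction gene Gja5, the orphan nuclear receptors Nr2f1 and Nr2f2, the T-box factors Tbx3 and Tbx18, and the homeobox factor Shox2. The study compared 2 groups of 2 libraries. Control mice had the genotype Ctnnb1floxP/floxP; alphaMHC-Cre- and knockout-labelled mice Ctnnb1floxP/floxP; alphaMHC-Cre+, so both groups carried floxed alleles of Ctnnb1, the gene of β-catenin, and differed in the presence of the Cre transgene as well as in the deletion. The alphaMHC promoter drives Cre in cardiomyocytes, so other cells of the ventricle keep their alleles. Nothing in the labels says that the libraries come from separate animals, and the p-values measure only the spread between these libraries, which may be technical.

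The chambers of the heart use partly different genes. Atrial myocytes make their own regulatory and essential myosin light chains, Myl7 and Myl4, where ventricular myocytes use Myl2 and Myl3, and the light chains of the atria are also made throughout the early heart tube before the ventricle switches them off. Atrial identity is held by Nr2f2, the sinoatrial node is patterned by Shox2, Tbx3 and Tbx18, and the fast conducting cells of the ventricle use the connexin Gja5. Several of these genes also have other sources in the ventricle: Gja5 is made by arterial endothelium and trabecular myocytes, Nr2f2 by venous and lymphatic endothelium, and Tbx18 by the epicardium and mural cells.

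Genes took 43288936 and 44624578 reads among controls against 45651797 and 34027143 among knockout-labelled libraries, so that the level at which 3 reads are expected lay between 0.0657 and 0.0882 CPM (counts scaled to a common library total). Values of a group are given in the order of library 1 and library 2. Every marker was above that level in all 4 libraries, the fewest reads being the 28 of Shox2 in control 1. Ctnnb1 itself was at 409 and 434 CPM among controls against 527 and 460 CPM among knockout-labelled libraries. That count takes in exons outside the deleted part and cells without Cre, so the deletion is not checked by it, and all directions refer to libraries by their label. Libraries stood apart in other ways. Markers of T cells summed to 295 CPM in control 1 and to between 1.39 and 5.80 CPM in the other 3 libraries, and thymic epithelial markers to 67.6 CPM against 4.70 to 5.58 CPM. Xist was at 602 CPM in knockout-labelled 2 and at no more than 0.327 CPM elsewhere, the pattern of a female library among male ones. Myl2, the ventricular regulatory light chain, was at 5545 to 13821 CPM, so ventricular muscle was present in all 4 libraries. That does not show that other tissue was absent. Whether atrial tissue was carried over to a different extent between the samples was not tested and cannot be told from the labels.

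The markers were lower in the knockout-labelled libraries as a group, but none passed the test over all genes. In control 2, 9 of 10 were higher than in control 1, against 49.6% of all genes tested. All 10 had a negative log2 fold change of knockout-labelled over control, with a median of -0.94 against -0.02 over all 18157 genes tested, 51.5% of which were negative. With the quasi-likelihood test of edgeR, adjusted by Benjamini-Hochberg over all genes, 0 of 10 were called at an adjusted p under 0.05, where 0.0110% of all genes were called higher and 0% lower. Before adjustment, 4 of 10 had a p under 0.05 (Sln, Nr2f2, Tbx3 and Myl7), where 11.2% of all genes were lower and 11.8% higher at that level. DESeq2 called 1 of them lower, Sln, against 4.91% lower and 6.19% higher among the genes it tested, edgeR with no filter on low counts also called Sln alone (0.753% of genes lower), and limma-voom called 0. Both knockout-labelled libraries lay below both controls for 5 of 10 (Sln, Myl7, Tbx3, Nr2f1 and Nr2f2), as they did for 29.7% of all genes. In bulk samples, fewer cells of a type and less RNA per cell cannot be told apart. The share of counts from mitochondrial genes also went with the groups, at 5.25% and 7.65% among controls against 10.2% and 14.4% among knockout-labelled libraries, and its part in these values was not tested.

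The library with the highest level was control 2 for 8 of 10 markers, against 20.0% of all genes tested. In the same 8 the level of control 2 was at least 1.5 times that of control 1, which held for 7.94% of all genes, and the median ratio of control 2 to control 1 was 1.87 over the 10 markers and 0.998 over all genes. Compared with control 2 alone, both knockout-labelled libraries were lower for 9 of 10 markers (37.7% of all genes). Compared with control 1 alone they were lower for 5 of 10 (38.4% of all genes). The median log2 fold change of the markers was -1.37 without control 1 and -0.45 without control 2. For Myl4, Bmp10, Gja5, Shox2 and Tbx18 the groups overlapped.

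**Figure D1:**
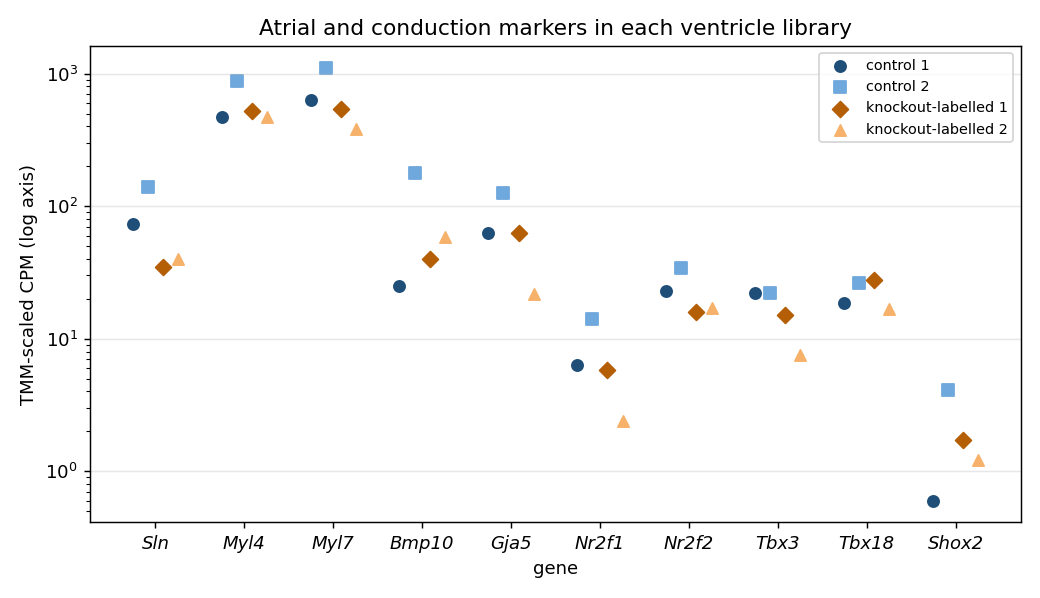
TMM-scaled CPM of the 10 markers on a log axis, 1 point for each of the 4 libraries. Control 2 (light blue squares) is the highest point for 8 genes, the exceptions being Tbx3 and Tbx18, and the knockout-labelled points (orange and brown) lie below both controls for Sln, Myl7, Nr2f1, Nr2f2 and Tbx3.

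Sln had the largest log2 fold change of the 10. It encodes sarcolipin, a small membrane protein that inhibits the calcium pump of the sarcoplasmic reticulum and is abundant in atrial but not ventricular myocytes of the mouse. The gene lies on chromosome 9 from 53850164 to 53854560 of GRCm38, on the forward strand. Its level was 73.6 and 139 CPM among controls against 34.7 and 40.1 CPM among knockout-labelled libraries. The groups did not overlap, and the knockout-labelled libraries were closer to each other than the controls were. Means and SD (n = 2 each) were 106 ± 46.3 CPM among controls against 37.4 ± 3.85 CPM, and edgeR put the log2 fold change at -1.51 ± 0.31 (SE), adjusted p 0.0925. With DESeq2 the adjusted p was 0.000538, the lowest of all alternatives tried, whose highest was 0.615, and the authors' deposited table lists a log2 fold change of -1.49 with an adjusted p of 0.000546. Without control 2 the value was -0.97, and without control 1 it was -1.90.

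Myl7 is the atrial regulatory light chain, at chr11:5896637-5898782 on the reverse strand. It was at 632 and 1110 CPM among controls against 541 and 381 CPM among knockout-labelled libraries. The groups did not overlap, though control 1 and knockout-labelled 1 were closer to each other than to the other library of their own group. The fitted log2 value by edgeR was -0.92 ± 0.34 (SE), adjusted p 0.187, with values of -0.45 without control 2 and -1.27 without control 1.

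Myl4, the atrial essential light chain at chr11:104550663-104595753 on the forward strand, was at 474 and 879 CPM among controls against 522 and 471 CPM among knockout-labelled libraries. Control 1 lay within the range of the knockout-labelled libraries, and only control 2 stood above. For Myl4 edgeR gave a log2 value of -0.45 ± 0.32 (SE), adjusted p 0.452, which turned to 0.07 when control 2 was left out.

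The bases before the Myl7 start are shown because Myl7 is the most abundant of the markers and the only one whose window held a CArG box, the site of serum response factor. The 250 bases come from RefSeq on GRCm38.p6, read 5′ to 3′ on the gene's strand, with the CArG box in capitals.
Myl7, chr11:5898783-5899032, reverse strand: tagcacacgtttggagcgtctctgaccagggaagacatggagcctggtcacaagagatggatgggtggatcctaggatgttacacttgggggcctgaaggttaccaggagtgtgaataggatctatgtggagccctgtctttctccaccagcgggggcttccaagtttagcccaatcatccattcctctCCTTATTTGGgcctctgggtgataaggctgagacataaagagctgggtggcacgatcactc

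The CArG box lay 61 to 52 bases before the start, and 1.40% of 27025 promoter windows of the same length held one. It was searched for after the sequences had been seen, and a match is a description of letters only.

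The ventricular light chains Myl2 and Myl3 were higher in both knockout-labelled libraries, though not all ventricular genes were. Myl2 was at 6691 and 5545 CPM among controls against 8442 and 13821 CPM among knockout-labelled libraries, with an edgeR log2 fold change of 0.86 ± 0.39 (SE) and an adjusted p of 0.249. Myl3 was at 3886 and 2969 CPM among controls against 4447 and 5997 CPM among knockout-labelled libraries, with an edgeR log2 fold change of 0.61 ± 0.33 (SE) and an adjusted p of 0.316. Neither passed, and in both genes the groups did not overlap, the knockout-labelled libraries being higher, as 26.5% of all genes were. Control 2 was the lowest library for both ventricular chains and the highest for both atrial ones.

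Shares of counts within a library need no scaling between libraries. Myl7 made up 8.63% of the counts of Myl7 and Myl2 together in control 1 (95% exact Clopper-Pearson interval 8.53% to 8.72%) and 16.7% in control 2 (16.6% to 16.8%). It made up 6.02% in knockout-labelled 1 (5.95% to 6.10%) and 2.68% in knockout-labelled 2 (2.63% to 2.73%). These intervals cover counting error only. The 4 libraries differed from each other by more than counting error, and both knockout-labelled libraries were below both controls. The means were 12.7% ± 5.70 and 4.35% ± 2.36 (SD, n = 2 each), a difference of -8.30 percentage points (two-sided exact permutation p = 0.333, the smallest that 2 against 2 allows).

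Myl4 made up 10.9% of the counts of Myl4 and Myl3 in control 1 (10.7% to 11.01%), 22.8% in control 2 (22.7% to 23.0%), 10.5% in knockout-labelled 1 (10.4% to 10.6%) and 7.28% in knockout-labelled 2 (7.16% to 7.40%). Control 1 lay above knockout-labelled 1 by little, and control 2 stood far above the other 3. The means were 16.9% ± 8.47 and 8.89% ± 2.28 (SD, n = 2 each), a difference of -7.97 points (two-sided exact permutation p = 0.333). Without control 2 the difference was -1.98 points for Myl4 and -4.28 points for Myl7. With counts divided by the length of the gene model, all annotated exons merged, it was -4.19 points for Myl4 and -18.9 points for Myl7. These values depend on the length chosen. The gene models of Myl4 and Myl2 have 4637 and 1950 bases, and their longest principal transcripts 943 and 889. The transcripts of Myl4 and Myl3 were identical at 79.7% of 523 aligned bases, with a longest shared run of 29 bases, and those of Myl7 and Myl2 at 71.2% of 441 bases, with a longest run of 16.

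**Figure D2:**
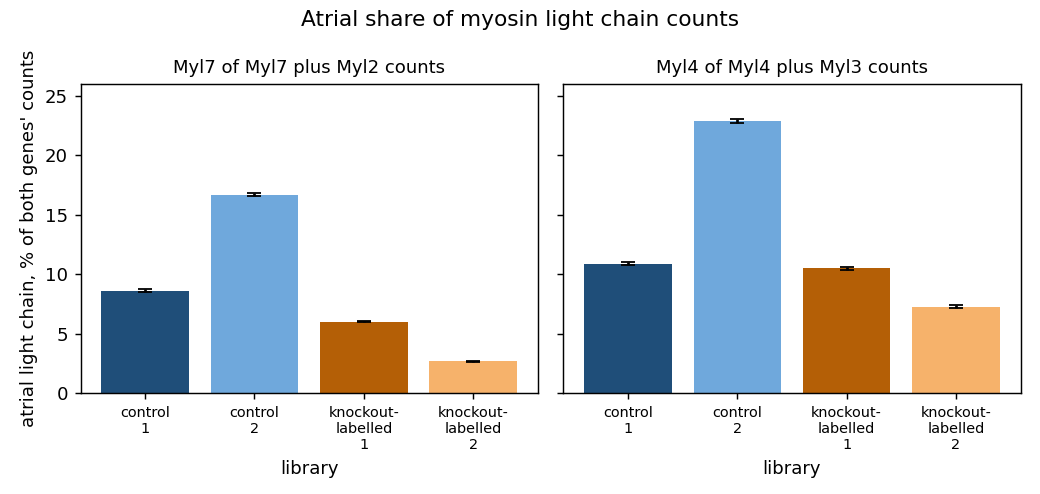
Share of each pair's counts taken by the atrial light chain, Myl7 with Myl2 on the left and Myl4 with Myl3 on the right, 1 bar per library with its 95% exact interval. Control 2 reaches 16.7% and 22.8%, and knockout-labelled 2 has the lowest bar in both panels.

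The values of Bmp10 depended on which control was used. It encodes a bone morphogenetic protein that the trabecular myocardium secretes before birth and that is made in the right atrium afterwards. The gene lies at chr6:87428994-87437677 on the forward strand. Its level was 25.0 and 177 CPM in controls 1 and 2, a ratio of 7.09 between libraries of the same group, against 40.1 and 58.9 CPM among knockout-labelled libraries. Both knockout-labelled libraries lay between the controls. The edgeR estimate of -1.03 ± 0.80 (SE, log2; adjusted p 0.480) turned to 0.99 without control 2 and was -1.84 without control 1.

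Its promoter window is shown because it was the only one of 8 to hold the GATA motif AGATAA, which binds factors of the Gata family. The 2 matches are in capitals.
Bmp10, chr6:87428744-87428993, forward strand: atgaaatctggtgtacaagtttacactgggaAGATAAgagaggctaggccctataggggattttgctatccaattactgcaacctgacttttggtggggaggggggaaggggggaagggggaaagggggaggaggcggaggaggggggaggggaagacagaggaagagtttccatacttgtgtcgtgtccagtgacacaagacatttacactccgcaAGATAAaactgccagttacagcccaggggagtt

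They lay 219 to 214 and 33 to 28 bases before the start. The motif, searched on both strands as AGATAA and its reverse complement, was present in 10.3% of all 27025 windows. Other spellings of the site, such as the TGATAA in the Myl7 window, were not searched for.

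Gja5, which encodes connexin 40, lies at chr3:96904693-97077416 on the forward strand. It was at 62.4 and 127 CPM among controls against 62.8 and 21.9 CPM among knockout-labelled libraries. Knockout-labelled 1 was at the level of control 1, and the difference between the groups came from control 2 and knockout-labelled 2. In the edgeR fit the log2 value of Gja5 was -1.15 ± 0.54 (SE), adjusted p 0.264. It was -2.06 without knockout-labelled 1 and -0.55 without control 2. Markers of arterial endothelium, where Gja5 is also made, summed to 416 and 438 CPM among controls against 394 and 411 CPM among knockout-labelled libraries, and edgeR called 0 of 8 (0.0110% of all genes) and DESeq2 1, which was lower (4.91%). Their median log2 fold change was -0.13, and -0.55 without knockout-labelled 2. Jag1, a Notch ligand of arteries, was at 29.0 and 36.4 CPM among controls against 18.0 and 20.6 CPM among knockout-labelled libraries, whereas for Nrp1, the most abundant of them, the groups overlapped. Their part in the Gja5 values was not tested.

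Nr2f1 and Nr2f2 encode COUP-TFI and COUP-TFII, the latter being needed for the atrial identity of myocytes. Nr2f2, at chr7:70351944-70366735 on the reverse strand, was at 22.8 and 34.3 CPM among controls against 16.0 and 16.9 CPM among knockout-labelled libraries. The knockout-labelled libraries nearly coincided and lay below both controls. The fitted log2 value by edgeR was -0.79 ± 0.24 (SE), adjusted p 0.142, between -1.06 without control 1 and -0.46 without control 2.

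Nr2f1, at chr13:78188973-78199757 on the reverse strand, was at 6.35 and 14.2 CPM among controls against 5.77 and 2.40 CPM among knockout-labelled libraries. The groups did not overlap, but control 1 and knockout-labelled 1 differed little. For Nr2f1 the edgeR log2 value was -1.32 ± 0.55 (SE), adjusted p 0.225, between -2.04 without knockout-labelled 1 and -0.62 without control 2. The transcripts of Nr2f1 and Nr2f2 were identical at 84.4% of 1230 aligned bases, with a longest shared run of 59 bases. A read within such a run could align to more than 1 place, and multimapped reads were counted for no gene.

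Each receptor gene has an antisense RNA gene overlapping part of its exons. B130024G19Rik, which covers 7.46% of the exonic bases of Nr2f2, was at 3.26 and 4.99 CPM among controls against 2.39 and 2.20 CPM among knockout-labelled libraries. A830082K12Rik, which covers 2.42% of those of Nr2f1, was at 1.44 and 2.17 CPM among controls against 1.31 and 0.676 CPM among knockout-labelled libraries. Both followed the order of the libraries in the receptor gene except for the last pair in B130024G19Rik. The libraries were made with a stranded kit, but the strand setting of the counting is not given in the sources used here, so reads of a gene and its antisense partner cannot be told apart with certainty.

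The Nr2f2 window is shown because it was the only one of 8 to hold ATCAAAG, the core bound by the TCF/LEF partners of β-catenin, here as its reverse complement CTTTGAT in capitals.
Nr2f2, chr7:70366747-70366996, reverse strand: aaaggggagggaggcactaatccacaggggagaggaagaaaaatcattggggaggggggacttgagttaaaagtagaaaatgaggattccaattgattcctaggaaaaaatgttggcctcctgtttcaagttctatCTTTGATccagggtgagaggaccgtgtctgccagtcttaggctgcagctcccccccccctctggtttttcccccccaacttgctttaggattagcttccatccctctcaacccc

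The match lay 114 to 108 bases before the start, and 3.23% of all windows held the motif on either strand. The windows of Myl4, Myl7, Bmp10, Gja5, Nr2f1, Nr2f2, Tbx18 and Shox2 were searched, those of Sln and Tbx3 having no entry in the table. None of these 8 windows held the T-box motif AGGTGT (12.0% of all windows), the COUP-TF core AGGTCA (13.8%) or the NKX2-5 motif TNAAGTG (10.04%), each searched on both strands. That says only that those letters are not in the 250 bases.

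Venous and lymphatic endothelial markers, which share Nr2f2 with the atria, summed to 529 and 623 CPM among controls against 555 and 628 CPM among knockout-labelled libraries. Of 8, 0 were called by edgeR (0.0110% of all genes) or DESeq2 (4.91% lower and 6.19% higher among the genes it tested). In both knockout-labelled libraries 2 were lower and 3 higher (29.7% and 26.5% of all genes). The median log2 fold change was 0.01. Lyve1, a hyaluronan receptor of lymphatic endothelium and resident macrophages, was at 30.9 and 21.6 CPM among controls against 36.3 and 55.8 CPM among knockout-labelled libraries, with Nr2f2 itself going the other way. Ephb4, a venous receptor kinase, was at 162 and 160 CPM against 155 and 107 CPM. The part of these cells in the Nr2f2 values was not tested.

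Among the node genes, Tbx3 was lower in both knockout-labelled libraries beside closely matching controls. Tbx3 is a repressor of the working myocardial program in the conduction system, at chr5:119670669-119684724 on the forward strand. It was at 22.2 and 22.1 CPM among controls against 15.2 and 7.51 CPM among knockout-labelled libraries. The controls differed by less here (SD of 0.131 CPM) than for any other marker, and both knockout-labelled libraries were lower. The fitted log2 value by edgeR was -0.96 ± 0.35 (SE), adjusted p 0.176, with -1.51 without knockout-labelled 1 and -0.54 without knockout-labelled 2. After removal of trends with GC content and length it was -0.62. Tbx3os1, an antisense RNA gene that covers 1.74% of the exonic bases of Tbx3, was at 3.86 and 4.15 CPM among controls against 1.40 and 0.710 CPM among knockout-labelled libraries, with an edgeR log2 fold change of -1.91 ± 0.43 (SE) and an adjusted p of 0.0981.

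Tbx18, which marks the sinus venosus as well as the epicardium and mural cells, lies at chr9:87702800-87731260 on the reverse strand. It was at 18.6 and 26.5 CPM among controls against 27.5 and 16.8 CPM among knockout-labelled libraries. The groups overlapped fully, with an edgeR log2 fold change of -0.02 ± 0.30 (SE) and an adjusted p of 0.975. The fold change turned to 0.26 on leaving out control 2 and to 0.30 on leaving out knockout-labelled 2, and was -0.37 with knockout-labelled 1 left out. Epicardial markers summed to 186 and 198 CPM among controls against 193 and 261 CPM among knockout-labelled libraries, with a median log2 fold change of 0.25. Of 8, 0 were called by edgeR (0.0110% of all genes) or DESeq2 (4.91% lower and 6.19% higher among the genes it tested). Tcf21, the most abundant of them and also a gene of fibroblast precursors, was at 55.28 CPM in both controls against 35.2 and 95.4 CPM among knockout-labelled libraries. Mural cell markers had a median of -0.28, with 0 of 8 called by edgeR (0.0110% of all genes). DESeq2 called 1 lower and 1 higher (4.91% and 6.19% of the genes it tested). In both knockout-labelled libraries 4 were lower (29.7% of all genes). Acta2, a smooth muscle actin on that list that immature cardiomyocytes also make, was at 173 and 332 CPM among controls against 1375 and 1137 CPM among knockout-labelled libraries (log2 fold change 2.31 ± 0.36 SE, adjusted p 0.0925 by edgeR). D030062O11Rik, an antisense RNA gene over 20.6% of the exonic bases of Tbx18, was at no more than 0.579 CPM.

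Shox2 keeps the sinoatrial node apart from working atrial muscle. The gene lies at chr3:66971727-66981771 on the reverse strand and was the least abundant marker. It had 28 and 201 reads among controls against 76 and 36 among knockout-labelled libraries, which is 0.6004, 4.11, 1.71 and 1.22 CPM. As for Bmp10, control 1 was the lowest and control 2 the highest library. Shox2 had an edgeR log2 value of -0.68 ± 0.83 (SE), adjusted p 0.665. It turned to 1.30 without control 2 and was -1.48 without control 1.

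**Figure D3:**
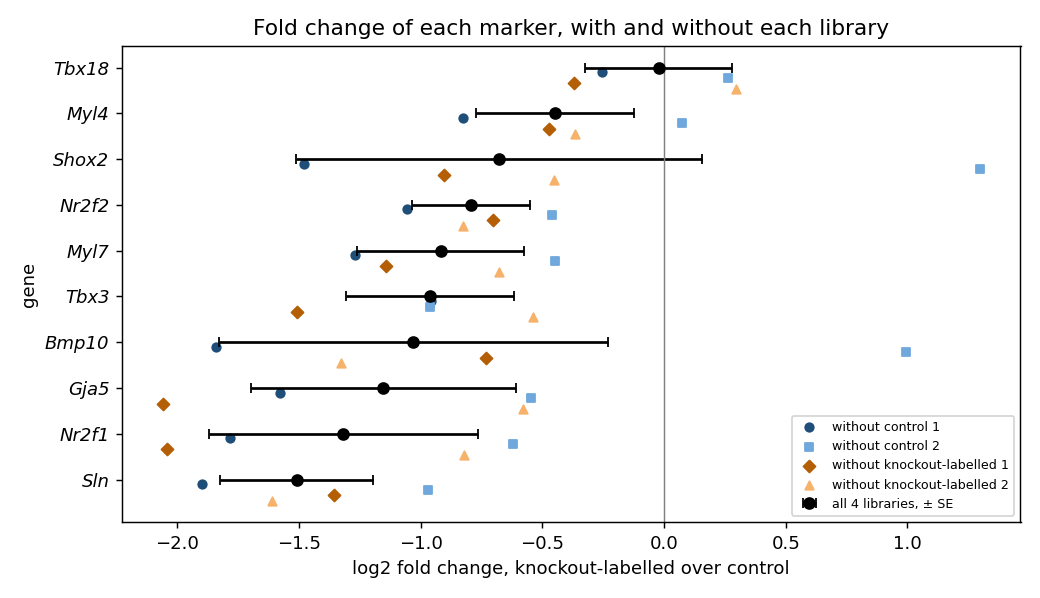
Log2 fold change of each marker, knockout-labelled over control, with all 4 libraries (black, ± SE) and with each library left out (coloured). The points without control 2 (light blue squares) lie to the right of 0 for Myl4, Bmp10, Shox2 and Tbx18, and all 5 points lie to the left of 0 for Sln, Myl7, Tbx3, Gja5, Nr2f1 and Nr2f2.

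Levels were compared between genes per kilobase of the longest principal transcript. The mean over 4 libraries was 1129 CPM per kilobase for Myl7 and 622 for Myl4. It was 54.5 for Sln, and Gja5 came next with a range of 7.04 to 40.7. Means were 16.8 for Bmp10, 5.33 for Nr2f2, 4.78 for Tbx18, 3.36 for Tbx3, 2.24 for Nr2f1 and 0.620 for Shox2. Only Myl4 and Sln were neighbours in this order whose ranges over the libraries did not overlap (499 to 932 against 26.3 to 106 CPM per kilobase). On the same scale Myl2 averaged 9702 and Myl3 4615, above the highest atrial chain in every library.

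Other atrial genes were lower in median as well, but their list too was chosen with earlier results of these data known. Of 11 further atrial genes, edgeR called 0 (0.0110% of all genes). Before adjustment, at the same threshold, 5 were lower and 0 higher (11.2% and 11.8% of all genes). In both knockout-labelled libraries 6 were lower and 0 higher (29.7% and 26.5% of all genes). The median log2 fold change was -0.95. That median was -0.43 without knockout-labelled 2 and -0.55 without control 2. DESeq2 called 4 of them lower (4.91% of the genes it tested). Control 2 was the highest library for 9 of 11, against 20.0% of all genes tested. Tbx5, a T-box factor placed on this list, was at 59.1 and 81.0 CPM among controls against 37.8 and 31.3 CPM among knockout-labelled libraries. The edgeR log2 fold change of Tbx5 was -1.02 ± 0.21 (SE), with an adjusted p of 0.0925. Which cells of the ventricle samples made it was not tested, so its level is not a readout of atrial tissue alone. Sbk2, an atrial kinase gene chosen for its size after the values were seen, was at 26.1 and 56.4 CPM among controls against 10.4 and 2.10 CPM among knockout-labelled libraries. Mybphl, an atrial relative of myosin-binding protein H chosen in the same way, was at 46.1 and 82.6 CPM among controls against 22.5 and 11.03 CPM among knockout-labelled libraries. In both genes the groups did not overlap. Nppa, which encodes the atrial natriuretic peptide and is also made by the fetal ventricle, was the most abundant of the list and did not share the order, at 390 and 521 CPM among controls against 335 and 723 CPM among knockout-labelled libraries.

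Of 22 further nodal and conduction genes 21 were tested, Pcp4 having a count of 0 in all 4 libraries. By edgeR 0 were called (0.0110% of all genes). Before adjustment, at the same threshold, 4 were lower and 1 higher (11.2% and 11.8% of all genes). In both knockout-labelled libraries 5 were lower and 2 higher (29.7% and 26.5% of all genes). The median log2 fold change was -0.26. DESeq2 called 1 lower and 1 higher (4.91% and 6.19% of the genes it tested). That median was 0.08 without knockout-labelled 2 and -0.995 without knockout-labelled 1. Tbx2, a close relative of Tbx3 that acts in the atrioventricular canal, was at 38.04 and 31.6 CPM among controls against 18.3 and 16.8 CPM among knockout-labelled libraries, with an edgeR log2 fold change of -0.98 ± 0.18 (SE) and an adjusted p of 0.0925. Cntn2, which marks the Purkinje system and was picked after its values were seen, was higher in both knockout-labelled libraries, at 3.65 and 2.27 CPM among controls against 9.54 and 7.71 CPM among knockout-labelled libraries. Hcn4, the main pacemaker channel of the node and also chosen afterwards, was at 8.21 and 15.2 CPM among controls against 12.3 and 1.86 CPM among knockout-labelled libraries.

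The lists for the ventricle and for all cardiomyocytes had medians above that of all genes. For 10 ventricular counterparts the median was 0.04, with 2 higher and 1 lower in both knockout-labelled libraries (26.5% and 29.7% of all genes), and 4 of 10 were negative, in a range of -1.16 to 0.86. For these genes control 2 was the highest library for 0 of 10, against 20.0% of all genes tested. Myh7, chosen after the values were seen, had the lowest log2 fold change of the list. It was at 8657 and 4969 CPM among controls against 4979 and 1128 CPM among knockout-labelled libraries, and the groups overlapped. For 8 genes of all cardiomyocytes the median was 0.36, with 5 higher and 0 lower in both (26.5% and 29.7% of all genes). Actc1, the cardiac actin, was at 6227 and 7453 CPM among controls against 14114 and 15710 CPM among knockout-labelled libraries (adjusted p = 0.144, edgeR), and Myh6, the myosin heavy chain of atria and newborn ventricles, was at 18329 and 18858 CPM and at 24105 and 26000 CPM. In both lists 0 genes were called by edgeR (0.0110% of all genes), while DESeq2 called 1 ventricular and 2 cardiomyocyte genes higher (6.19% of the genes it tested). Scaling by library totals put the medians at -0.18 and 0.11 against -0.26 for all genes, and without knockout-labelled 1 the ventricular median was -0.36.

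Fibroblast markers had a median of 0.01, and 8 of 8 were higher in control 2 than in control 1 (49.6% of all genes tested). Of 8, 0 were called by edgeR (0.0110% of all genes) or DESeq2 (4.91% lower and 6.19% higher among the genes it tested). Postn, a matrix protein gene, was at 582 and 1098 CPM among controls against 1343 and 1376 CPM among knockout-labelled libraries. Neural crest and nerve markers had a median of -0.84, and 5 of 6 were higher in control 2 than in control 1 (49.6% of all genes tested). Of 6 tested genes, edgeR called 0 (0.0110% of all genes) and DESeq2 called 1 lower (4.91% of the genes it tested).

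**Figure D4:**
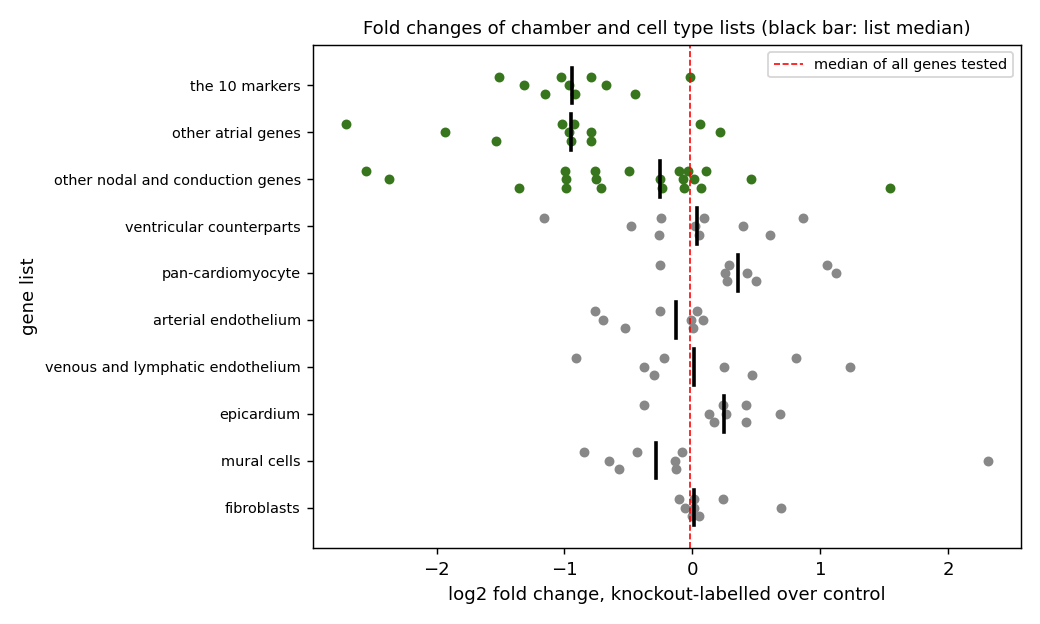
Log2 fold change, knockout-labelled over control, of each tested gene (points; green for atrial and conduction lists, grey for others) in 10 lists, with the list's median (black bar) and the median of all genes tested (dashed red line). The 10 markers and the other atrial genes have medians of -0.94 and -0.95, and the cardiomyocyte, epicardial and ventricular lists lie at 0.36, 0.25 and 0.04.

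Genes with the most similar pattern were sought by the root mean square difference of centred log2(CPM + 1) over the 4 libraries, among 9433 other protein-coding genes with a mean of at least 10 CPM. The mean profile of Sln, Myl4, Myl7 and Bmp10 was -0.28 and 1.07 among controls against -0.40 and -0.38 among knockout-labelled libraries. Nearest to it were Gbp3 (0.21), Dkk3 (0.22), Irgm2 (0.22), Gbp7 (0.24) and Irgm1 (0.24). With 0.1 added to the CPM in place of 1, Ddx58 took the place of Gbp7. Gbp3, Irgm2, Gbp7 and Irgm1 stood on none of the lists. Among 9433 genes compared over 4 libraries some close matches are likely, so they do not show whether the pattern is particular to atrial genes. What the profile comes from was not tested. Dkk3, a secreted relative of the Wnt inhibitors of the Dickkopf family, stood on the list of other atrial genes and was at 126 and 216 CPM among controls against 81.9 and 93.6 CPM among knockout-labelled libraries. Gbp3, which encodes a guanylate-binding GTPase, was at 9.37 and 19.7 CPM among controls against 5.41 and 6.26 CPM among knockout-labelled libraries. These likenesses rest on 4 libraries only. For the mean profile of Tbx3, Tbx18 and Shox2 the nearest were Inka2 (0.04), Flrt2 (0.05) and Gucy1a1 (0.07), although the 3 genes differ among themselves in the order of the libraries.

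**Figure D5:**
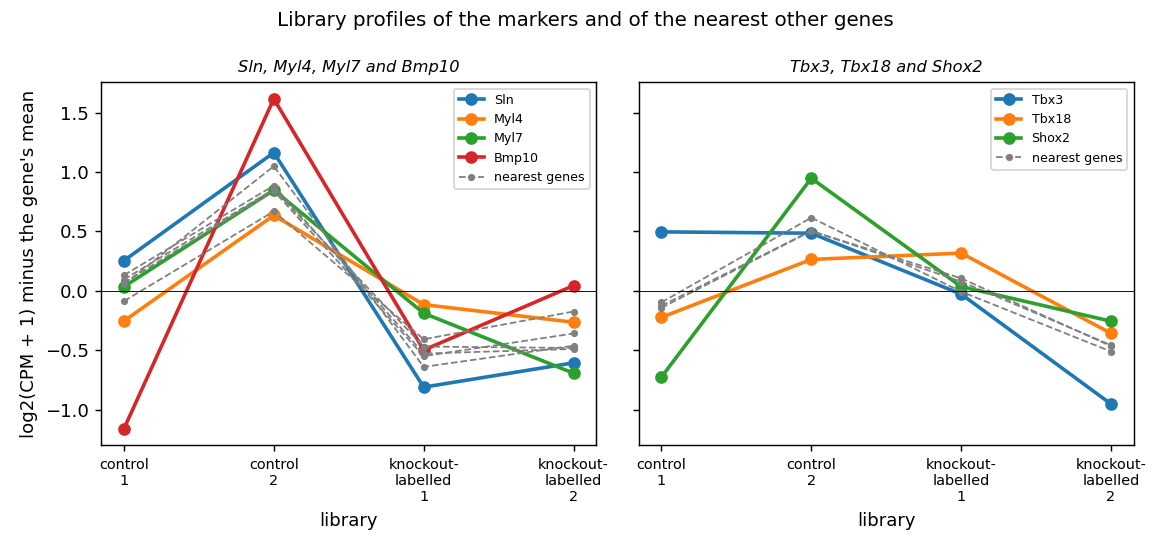
Log2(CPM + 1) minus each gene's mean, by library, for Sln, Myl4, Myl7 and Bmp10 (left) and Tbx3, Tbx18 and Shox2 (right), with the nearest other genes as dashed grey lines. Lines only join the points of a gene: on the left each of the 4 markers peaks in control 2, and on the right Tbx3 is equally high in both controls while Shox2 peaks in control 2.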

How the data were processed

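RNA of heart ventricles was enriched for polyA and made into stranded Kapa libraries, per the labels' protocols. STAR 2.5.3a, HTSeq 0.6.1, DESeq2 1.18 and the build GRCm38 are named per the submitters' processing notes. Deposited counts are unscaled whole reads per gene. For the annotation release and the strand setting, the entry is: not given in the sources used here. A series table repeats these counts and adds log2 fold changes with p-values by the authors, used only for Sln. Its 4 columns of normalized values were not used.

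Of 53465 genes, 53360 matched GENCODE vM21 (GRCm38) by identifier without version. The 5 HTSeq summary categories were left out. Multimapped reads took 19.4% and 21.0% among controls against 23.9% and 29.7% among knockout-labelled libraries. Counts were fitted in R 4.3.3 with edgeR 4.0.16 (filterByExpr, TMM factors of 1.08, 1.10, 0.972 and 0.869, quasi-likelihood test, Benjamini-Hochberg adjustment over all 18157 genes, threshold 0.05), after tests on simulated data. Alternatives were DESeq2 1.42.0, limma-voom 3.58.1, other scalings, no filter, GC content and length trends, a replicate block and leaving out each library. CPM are TMM-scaled. Promoter windows are RefSeq's on GRCm38.p6.

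The markers and the 13 other lists were chosen with earlier results of these data known, so no p was adjusted over a list alone. Genes named were the markers, Myl2 and Myl3, the member of each list with the smallest p or the highest mean, and the nearest in pattern; those chosen after their values were seen are said to be. Some genes that the rule names are not reported here. Neural crest and lung lists, also examined for other tissue, summed to at most 22.7 and 1.14 CPM, with 0 called by edgeR.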

Additional observations from a re-analysis of the deposited data

How the results depend on the processing

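Over 130 values of the 10 markers under 13 alternatives, 125 kept the negative sign. The 5 others came from leaving out a library, with ranges over the 4 such fits of -0.83 to 0.075 for Myl4, -1.84 to 0.99 for Bmp10, -0.37 to 0.30 for Tbx18 and -1.48 to 1.30 for Shox2; control 2 was the library left out for the positive values, and for Tbx18 also knockout-labelled 2. These fits leave 1 library in a group, which is assumed to vary like the others. Over all genes edgeR called 2. The number was 1758 with DESeq2 (980 higher, 778 lower), 0 with limma-voom, 554 with no filter, 18 with the replicate block and 0 to 30 with 1 library left out. Among the markers edgeR called 0, DESeq2 1 and edgeR with no filter 1, each time Sln. The cause was not tested. Deviations of libraries with the same replicate number from their group means had a weak negative correlation (-0.142 across 18157 genes). The numbers share no stated source. With the numbers crossed, an alternative chosen after seeing the data, the replicate block called 941 of 18157 genes (501 higher, 440 lower). Of the 10 markers it called 3, all lower. Scaling by 8 cardiomyocyte genes, chosen after seeing the data, moved the median of all genes to -0.52 and that of the markers to -1.42. It called 2378 of 18157 genes (170 higher, 2208 lower) and 2 of the 10 markers, both lower. Scaling by library totals moved the median of all genes to -0.26 and that of the markers to -1.16. Markers below both controls numbered 5 of 10 (29.7% of all genes). With control 1 left out, 9 were below the remaining control (37.7% of all genes). With control 2 left out, 5 were (38.4% of all genes). Per kilobase of gene model (all annotated exons merged), the difference in light chain share was -18.9 points in place of -8.30 for Myl7. For Myl4 it was -4.19 in place of -7.97. Shox2 had the fewest reads, 28 to 201 per library.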
